A study of Xenopus laevis with 2 samples.

Results

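Antioxidant enzymes, cytochromes P450 and the conjugating and reducing enzymes that work beside them were examined in the hearts of Xenopus laevis tadpoles, a frog in which many genes exist as a pair of homeologs, an L copy and an S copy. Members were chosen by gene symbol alone, with a pattern for superoxide dismutases, catalase, glutathione peroxidases, peroxiredoxins, thioredoxins, glutaredoxins, glutathione enzymes, P450s other than the cyp26 family, sulfotransferases and related names. The pattern took 111 of 8879 listed transcripts, which carried 107 symbols. Hearts came from sibling embryos injected at fertilization with a morpholino against tcf21 (Tcf21-MO) or with a control morpholino (Control-MO), kept in 0.1x MBS at 16 to 23 °C and dissected at stage 44 to 45. Morpholinos are antisense oligomers that stop a target RNA from being translated or spliced, and Tcf21 is a transcription factor of the epicardium, the outer layer of the heart. Each group was 1 polyA library from 70 to 100 pooled hearts, so both groups carry an injected morpholino, there is no replicate check, and every ratio compares these libraries and not the conditions.

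The Tcf21-MO library held 17767221 reads and the Control-MO library 17636925. The tcf21 transcript had 3738 reads in the Tcf21-MO library and 1266 in the Control-MO library. The labels do not say whether its morpholino blocks translation or splicing, so that level does not check the label. Of 18 cardiomyocyte marker rows, all were past the read floor in both libraries combined, with 52457 summed CPM (reads set against the scaled library size) in the Tcf21-MO library and 72025 in the Control-MO library. Their ratios of Tcf21-MO over Control-MO had counting intervals that lay below 1 for 14 rows (77.8%, against 28.4% of all transcripts). They lay above 1 for 3 rows (16.7%, against 29.8%).

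Cells that use oxygen make superoxide and hydrogen peroxide. Superoxide dismutases turn superoxide into hydrogen peroxide, and catalase splits the peroxide into water and oxygen. Glutathione peroxidases and peroxiredoxins reduce peroxides with electrons that come mainly from NADPH through glutathione or thioredoxin. The transcription factor NRF2 (gene nfe2l2), held back by KEAP1, raises many genes of this system under oxidative stress. Cytochromes P450 are heme enzymes that oxidise drugs, fatty acids, sterols and steroids. Many P450s take electrons from the reductase encoded by por, and transferases then couple the products to glutathione or sulfate. Cardiac muscle is rich in mitochondria, and red blood cells are known in mammals for high levels of catalase, peroxiredoxin 2 and glutathione peroxidase 1. Functions given below are those known for the mammalian counterparts.

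Most of these transcripts lay close together in the 2 libraries, and those at least 2-fold lower were the peroxide-removing enzymes prdx2, gpx3 (S copy) and cat, 3 P450s of low level and aifm3. Reads were scaled with TMM factors, which set the effective library sizes from the bulk of transcripts, and log2 ratios of Tcf21-MO over Control-MO were computed with 0.5 counts added. Ratios are given with a 95% exact binomial interval, which covers counting error only. Calls of higher or lower needed a 2-fold difference together with an interval that did not hold 1. A floor of 20 reads over both libraries left 103 of the 111 members. By this rule 3 members were higher (2.91%), against a background of 2.67% of all 8132 transcripts past the floor. A further 7 were lower (6.80%), against a background of 2.40%. With total-count scaling the split was 1 higher and 8 lower. The median log2 ratio was 0.07 over the members and 0.00 over all transcripts, with the members' median below 0 when the erythroid rows or the 50 most abundant transcripts were left out of the scaling. Of the members, 75.7% lay within 1.5-fold, as did 84.3% of all transcripts.

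**Figure D1:**
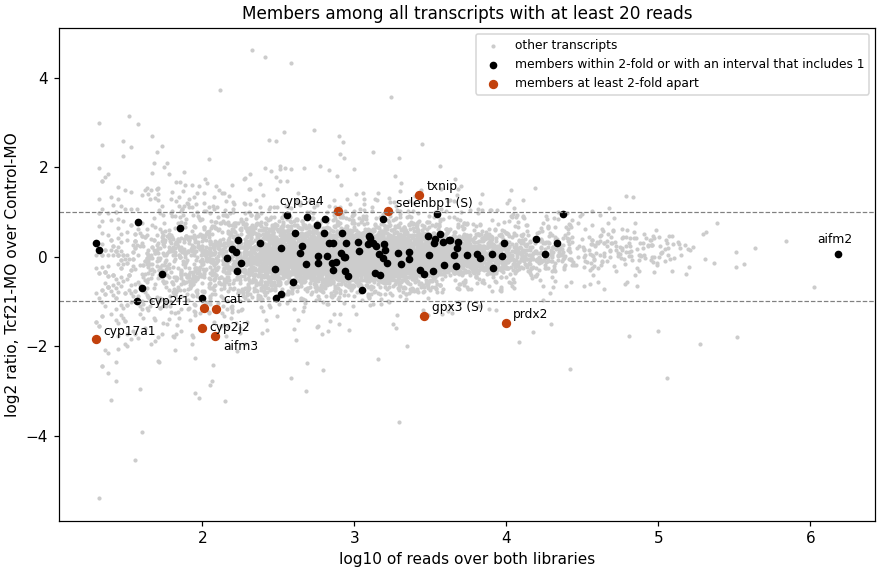
Each point is a transcript with at least 20 reads, with reads over both libraries on a log10 axis against the log2 ratio of Tcf21-MO over Control-MO; dashed lines mark 2-fold. Members lie along the whole range of read counts, and the 3 higher and 7 lower members are named, with prdx2 the most read of the 10.

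Counting intervals excluded 1 for many smaller differences. They lay above 1 for 39 members (37.9%, background 29.8%) and below 1 for 25 (24.3%, background 28.4%), and included 1 for the other 39. These counts depended on the scaling. Without the 50 most abundant transcripts, 34 members lay above 1 and 33 below, as did 1827 and 3061 of all 8132 transcripts. Without erythroid rows, 34 members lay above 1 and 31 below, as did 1849 and 3019 of all transcripts. At a threshold of 1.5-fold, 10 members were higher (9.71%, background 7.82%) and 11 lower (10.7%, background 6.67%). No member was 4-fold apart in either direction, against backgrounds of 0.406% higher and 0.418% lower. Levels are given as RPKM, which sets scaled reads against the deposited transcript length and the library's depth. By mean RPKM over the libraries, members had a median of 16.3 and all transcripts one of 11.6. A mean of at least 100 RPKM was reached by 16 members and a mean of 1 or less, but not 0, by 12.

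**Figure D2:**
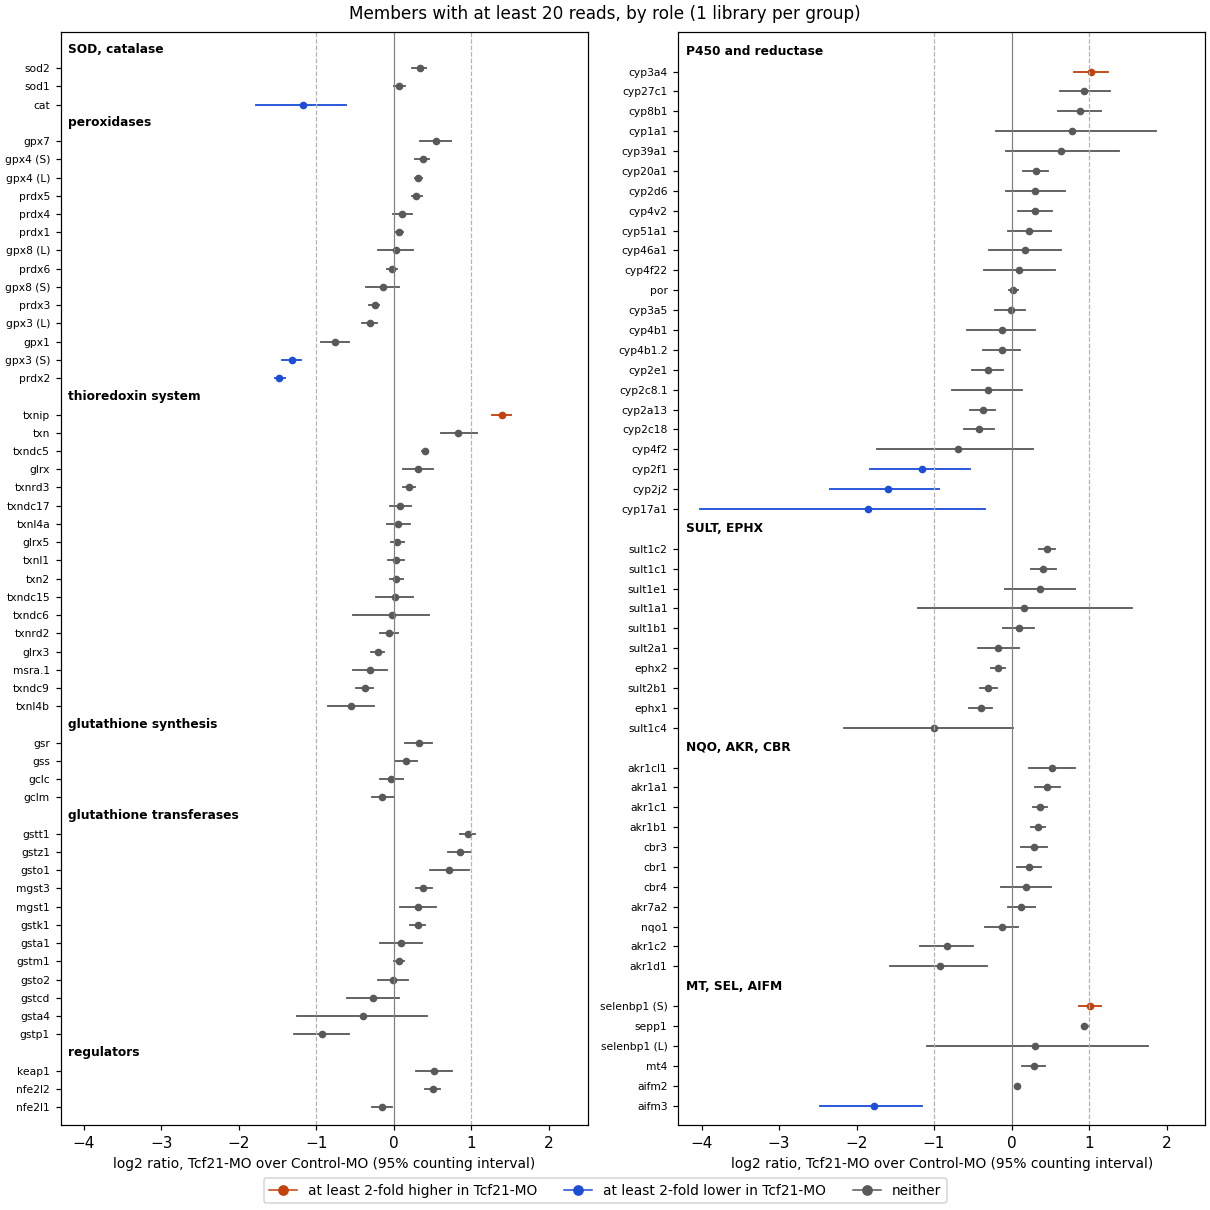
Log2 ratio of Tcf21-MO over Control-MO for the 103 members past the floor of 20 reads, grouped by role, with 95% counting intervals as lines. Orange marks the 3 members at least 2-fold higher and blue the 7 at least 2-fold lower; grey members passed neither way, and (L) and (S) mark homeologs of 1 symbol.

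The dismutases and catalase differed from each other. The mitochondrial manganese dismutase gene sod2 had 2641 reads in the Tcf21-MO library and 2146 in the Control-MO library, a ratio of 1.25 (1.18 to 1.33). The cytosolic copper-zinc dismutase gene sod1 had 3229 and 3135 reads in the same order, a ratio of 1.05 (0.998 to 1.10) that fell below 1 when the 50 most abundant transcripts or the erythroid rows were left out of the scaling. Catalase, the peroxisomal enzyme that splits hydrogen peroxide, was 2.28-fold lower (1.54 to 3.45), with 37 reads in the Tcf21-MO library and 86 in the Control-MO library. Its level was low in both, at 1.13 RPKM in the Tcf21-MO and 2.58 RPKM in the Control-MO library, while sod2 stood at 143 and 114 RPKM. The name table calls this row cat.1.L, a numbered copy, and other copies were not analysed here.

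Among the peroxiredoxins, prdx2 changed its place. This cytosolic peroxidase gene had 2578 reads in the Tcf21-MO library and 7304 in the Control-MO library and was 2.78-fold lower (2.66 to 2.91). It took 11.5% of the summed peroxiredoxin RPKM in the Tcf21-MO library, where it ranked 4 of 6, and 27.5% in the Control-MO library, where it ranked 2. The other cytosolic enzyme, prdx1, was the most abundant in both libraries, with 555 and 531 RPKM, a ratio of 1.04 (1.01 to 1.08) whose direction turned when erythroid rows or the 50 most abundant transcripts were left out of the scaling. The mitochondrial prdx3 had 3694 and 4483 reads, 1.19-fold lower (1.14 to 1.24). The prdx5 product, found in mitochondria, peroxisomes and cytosol, had 5275 and 4384 reads, a ratio of 1.23 (1.18 to 1.28). Ratios were 1.07 (0.988 to 1.17) for prdx4, an enzyme of the endoplasmic reticulum, and 0.983 (0.936 to 1.03) for prdx6. Summed over the family, peroxiredoxins had 1556 RPKM in the Tcf21-MO and 1808 RPKM in the Control-MO library. Without prdx2 the sums were 1377 and 1311 RPKM, so prdx2 accounted for the lower sum.

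Glutathione peroxidases held the second called peroxidase. The secreted enzyme gpx3 has both homeologs in the table, and their ratios differed in size. The S copy had 817 reads in the Tcf21-MO library and 2077 in the Control-MO library, a ratio of 0.401 (0.369 to 0.435) and more than 2-fold lower. The L copy had 1447 and 1830 reads, 1.24-fold lower (1.16 to 1.33). The S copy thus held 35.5% of the gpx3 RPKM in the Tcf21-MO library and 52.6% in the Control-MO library. The cytosolic gpx1 had 412 and 709 reads, 1.69-fold lower (1.49 to 1.91), under the 2-fold threshold.

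The membrane-protecting enzyme gpx4, which reduces lipid hydroperoxides, was the most abundant of the family. Its L copy had 795 RPKM in the Tcf21-MO and 640 RPKM in the Control-MO library, from 11873 and 9734 reads, a ratio of 1.24 (1.21 to 1.28). The S copy had 2356 and 1862 reads, a ratio of 1.29 (1.21 to 1.37). The 2 copies kept their balance, with 82.1% of gpx4 RPKM from L in the Tcf21-MO library and 82.6% in the Control-MO library. For the endoplasmic reticulum enzyme gpx7, 490 and 344 reads gave a ratio of 1.45 (1.26 to 1.67). Both gpx8 copies had intervals that included 1, with 328 and 329 reads for L and 338 and 380 for S. Near-identical copies can share reads, so the separate values of homeologs are uncertain.

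**Figure D3:**
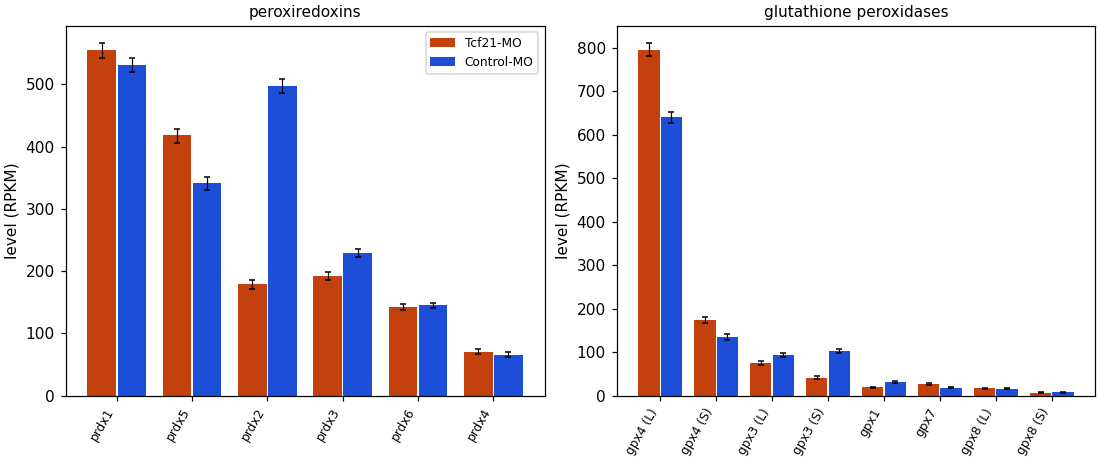
Level in RPKM of each peroxiredoxin row (left) and each glutathione peroxidase row (right), Tcf21-MO in orange and Control-MO in blue, 1 library each, with error bars for 95% exact Poisson counting intervals. The prdx2 bars stand at 179 and 497 RPKM and those of the gpx3 S copy at 41.2 and 103 RPKM, while gpx4 leads its family in both libraries.

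The lower peroxidases moved in the same direction as markers of red blood cells. Intervals of all 20 erythroid marker rows lay below 1 (background 28.4%), and 16 of them were called lower (80.0%, background 2.40%). They summed to 10489 CPM in the Tcf21-MO and 38783 CPM in the Control-MO library, a ratio of 0.270. Single erythroid rows had ratios from 0.153 for hba-l5 to 0.915 for gypc. Ratios of prdx2, gpx3 (S), cat and gpx1 were 0.359, 0.401, 0.438 and 0.592. The erythroid range is so wide that it also holds other lower members, such as aifm3, cyp2j2 and gstp1 at 0.289, 0.326 and 0.524. Lying in it thus does not set prdx2, gpx3 (S), cat and gpx1 apart, and the part of red cells in their values was not tested. In pooled hearts, fewer cells of a type and less RNA per cell cannot be told apart.

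In the thioredoxin system the highest member was not an enzyme. Of 17 rows past the floor, 1 was called higher (5.88%, background 2.67%) and 0 lower. That row was txnip, an arrestin-family protein that binds thioredoxin and restrains glucose uptake. It had 1920 reads in the Tcf21-MO library and 747 in the Control-MO library, 2.62-fold higher (2.40 to 2.85). Thioredoxin itself (txn, cytosolic) had 410 and 234 reads, a ratio of 1.78 (1.52 to 2.10), while the mitochondrial txn2 had 2273 and 2271 reads.

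The thioredoxin reductases, selenoenzymes that pass electrons from NADPH to thioredoxin, were present at unequal levels. The txnrd3 row had 58.9 RPKM in the Tcf21-MO and 51.5 RPKM in the Control-MO library, a ratio of 1.14 (1.08 to 1.21), and the mitochondrial txnrd2 had 27.3 and 28.5 RPKM. The row of the cytosolic reductase txnrd1 had 2 and 6 reads, under the floor. Thioredoxin-domain genes were led by txndc5, a protein disulfide isomerase of the endoplasmic reticulum, with 8791 and 6796 reads, a ratio of 1.32 (1.28 to 1.36).

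Glutaredoxins that serve iron-sulfur cluster assembly were abundant. The mitochondrial glrx5 had 197 RPKM in the Tcf21-MO and 191 RPKM in the Control-MO library, a ratio of 1.03 (0.978 to 1.09) whose sign depended on the scaling. For glrx3 the reads were 2129 and 2512, 1.16-fold lower (1.09 to 1.23), and for the cytosolic glrx they were 484 and 398, a ratio of 1.24 (1.08 to 1.42). The methionine sulfoxide reductase row msra.1 was 1.24-fold lower (1.07 to 1.44). The symbol pattern also took the splicing factor genes txnl4a, with a ratio of 1.04 (0.936 to 1.15), and txnl4b, with 158 and 237 reads, a ratio of 0.679 (0.552 to 0.834). These are no antioxidant enzymes.

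Glutathione synthesis and reduction genes lay within 1.5-fold. Glutamate-cysteine ligase, the first step of synthesis, has a catalytic subunit gene gclc with 750 reads in the Tcf21-MO library and 783 in the Control-MO library, a ratio of 0.976 (0.881 to 1.08). Its modifier subunit gene gclm had 775 and 874 reads, 1.11-fold lower (1.00 to 1.22). The synthetase gene gss had 835 and 766 reads, a ratio of 1.11 (1.01 to 1.23). The reductase gene gsr, which regenerates glutathione with NADPH, had 586 and 478 reads, a ratio of 1.25 (1.10 to 1.41).

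Glutathione transferases mostly had ratios above 1, none of them 2-fold. Of 12 rows, 7 had intervals above 1 (58.3%, background 29.8%), 1 below 1 (8.33%, background 28.4%) and 4 that included 1. The 12 include gstcd, a row named for another role. With each of the other scalings 6 intervals lay above 1. Below 1 lay 2 when erythroid rows or the 50 most abundant transcripts were left out of the scaling. Their median log2 ratio was 0.20, against 0.00 over all transcripts. The theta-class gene gstt1 came closest to the threshold, with 2303 reads in the Tcf21-MO library and 1214 in the Control-MO library, a ratio of 1.93 (1.80 to 2.07). The gstz1 gene, whose product acts in tyrosine breakdown, had 991 and 560 reads, a ratio of 1.80 (1.62 to 2.00). The omega-class gsto1 had 350 and 218 reads, a ratio of 1.64 (1.38 to 1.95), while its relative gsto2 had 430 and 442.

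The most abundant transferase was the mu-class gstm1, at 263 RPKM in the Tcf21-MO and 252 RPKM in the Control-MO library. Its ratio of 1.05 (1.00 to 1.09) fell below 1 when the erythroid rows or the 50 most abundant transcripts were left out of the scaling. The membrane-bound mgst3 and mgst1 had ratios of 1.31 (1.22 to 1.40) and 1.24 (1.06 to 1.45). The pi-class gstp1 went the other way, with 104 and 202 reads, 1.91-fold lower, with an interval of 0.410 to 0.668 for its ratio of 0.524. It passed 2-fold when erythroid rows or the 50 most abundant transcripts were left out of the scaling, at a log2 ratio of -1.01 in both cases. The share of the summed transferase RPKM taken by gstt1 was 17.7% in the Tcf21-MO and 11.5% in the Control-MO library.

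The regulators of this system were measured through 3 rows. NRF2 (nfe2l2) had 2128 reads in the Tcf21-MO library and 1537 in the Control-MO library, a ratio of 1.41 (1.32 to 1.51). Its inhibitor gene keap1 had 367 and 261 reads, a ratio of 1.43 (1.22 to 1.68). The related factor gene nfe2l1, which controls proteasome genes, had 956 and 1086 reads, 1.12-fold lower (1.02 to 1.22). Transcript levels say nothing of the NRF2 protein, which KEAP1 controls by degradation.

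Other genes known as NRF2 targets were listed apart from the members. Of 14 rows, 0 were at least 2-fold apart, 9 had intervals above 1 (64.3%, background 29.8%) and 4 below 1 (28.6%, background 28.4%). Their median log2 ratio was 0.28. The highest was the transketolase gene tkt, with 2706 reads in the Tcf21-MO and 1483 in the Control-MO library, a ratio of 1.86 (1.74 to 1.98), and the lowest was the biliverdin reductase gene blvrb, 1.29-fold lower. Heme oxygenase hmox1 had 755 and 565 reads, a ratio of 1.36 (1.22 to 1.52). The NRF2 target nqo1, a quinone reductase among the members, had 361 and 402 reads, a ratio of 0.915 (0.791 to 1.06), and gclc and gclm also had ratios below 1. These rows are not a full list of targets among the members. Other members of the system had ratios above 1, such as txn at 1.78 (1.52 to 2.10) and gsr at 1.25 (1.10 to 1.41). Of 11 rows for NADPH supply, 0 were 2-fold apart, 4 intervals lay above 1 (36.4%, background 29.8%) and 3 below 1 (27.3%, background 28.4%). With each of the other scalings 4 lay above 1 and 5 below 1. The median log2 ratio of the 11 rows was 0.02 with TMM. They ran from tkt, which is in both lists, down to the lactonase gene pgls, with 538 and 616 reads.

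Genes that produce oxidants were also listed. Of 9 rows for NADPH oxidase subunits and other sources, 1 was called higher (11.1%, background 2.67%) and 0 lower. Of their intervals, 8 lay above 1 (88.9%, background 29.8%), and the median log2 ratio was 0.68. The oxidase subunit gene ncf4 had 46 reads in the Tcf21-MO library and 17 in the Control-MO library, the membrane subunit cybb had 479 and 269 reads, a ratio of 1.81 (1.56 to 2.11), and the lowest was rac2 at 1.11 (0.946 to 1.30). The rows cybb, ncf4, rac2 and mpo are also leukocyte markers. Of 14 leukocyte marker rows, 12 had intervals above 1 (85.7%, background 29.8%). Leaving erythroid rows or the 50 most abundant transcripts out of the scaling gave 9 above 1 and 1 below 1. All transcripts above 1 then numbered 1849 and 1827, in that order, against 2422 with TMM. The 14 rows summed to 643 CPM in the Tcf21-MO and 444 CPM in the Control-MO library. Their part in these values was not tested.

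Cytochromes P450 were low in these hearts. The 26 P450 rows together had 5087 reads in the Tcf21-MO library and 4911 in the Control-MO library, or 132 and 124 summed RPKM, and no single row exceeded 18.9 RPKM. The reductase gene por stood higher, at 54.1 RPKM in the Tcf21-MO and 53.2 RPKM in the Control-MO library, a ratio of 1.02 (0.977 to 1.06) whose sign depended on the scaling. Of 22 P450 rows past the floor, 1 was called higher (4.55%, background 2.67%) and 3 lower (13.6%, background 2.40%). The ranking by RPKM was led by cyp20a1, an enzyme without an assigned substrate, at 17.1 RPKM in the Tcf21-MO library, and by cyp2a13 at 18.9 RPKM in the Control-MO library.

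The higher P450 was cyp3a4, of a subfamily that oxidises many drugs and steroids. It had 517 reads in the Tcf21-MO library and 260 in the Control-MO library, 2.03-fold higher (1.74 to 2.36). It fell just under 2-fold with 4 of the 5 other scalings, at a lowest log2 ratio of 0.93. Its relative cyp3a5 had 423 and 435 reads, a ratio of 0.990 (0.864 to 1.13), so the 2 members of this subfamily stood apart. Next to the threshold were cyp27c1, a retinol desaturase gene, with 237 and 126 reads and a ratio of 1.92 (1.54 to 2.40), and the bile acid hydroxylase gene cyp8b1, with 312 and 173 reads and a ratio of 1.84 (1.52 to 2.22). The sterol demethylase gene cyp51a1 of cholesterol synthesis had 242 and 210 reads, a ratio of 1.17 (0.972 to 1.42).

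The lower P450s all had few reads. The arachidonic acid epoxygenase gene cyp2j2, which is expressed in human heart, had 24 reads in the Tcf21-MO library and 75 in the Control-MO library, 3.07-fold lower (1.92 to 5.08). The cyp2f1 row had 31 and 71 reads, 2.25-fold lower (1.46 to 3.55). The steroid hydroxylase gene cyp17a1 had 4 and 16 reads, 3.93-fold lower (1.27 to 16.1), with its sum exactly at the floor. At these depths the intervals span more than a 2-fold range.

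P450 family 2 had 7 rows past the floor, of which 5 had intervals below 1, against 28.4% of all transcripts, and 2 were called lower, against 2.40% of all transcripts. The other rows, cyp2d6 with a ratio of 1.24 (0.950 to 1.61) and cyp2c8.1 with one of 0.804 (0.586 to 1.10), had intervals that included 1. Its 9 rows summed to 1621 reads in the Tcf21-MO library and 2141 in the Control-MO library, or 39.6 and 51.2 RPKM. The cyp2a13 row had 590 and 779 reads, 1.30-fold lower (1.16 to 1.45), cyp2c18 had 386 and 527 reads, 1.34-fold lower (1.17 to 1.53), and the ethanol-inducible enzyme gene cyp2e1 had 381 and 482 reads, 1.24-fold lower (1.08 to 1.42). The name table gives cyp2a6, cyp2c8.1, cyp2a13 and cyp2c18 as numbered copies of cyp2a6, so reads of these 4 rows may have been shared between them. The cyp2a6 row was at 0 in both libraries, as was the steroid hydroxylase row cyp21a2.1. A count of 0 allows up to 3 counts, or 0.171 CPM in the Tcf21-MO and 0.168 CPM in the Control-MO library. The aromatase gene cyp19a1 had 0 and 2 reads and cyp2c8.2 had 3 and 4.

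**Figure D4:**
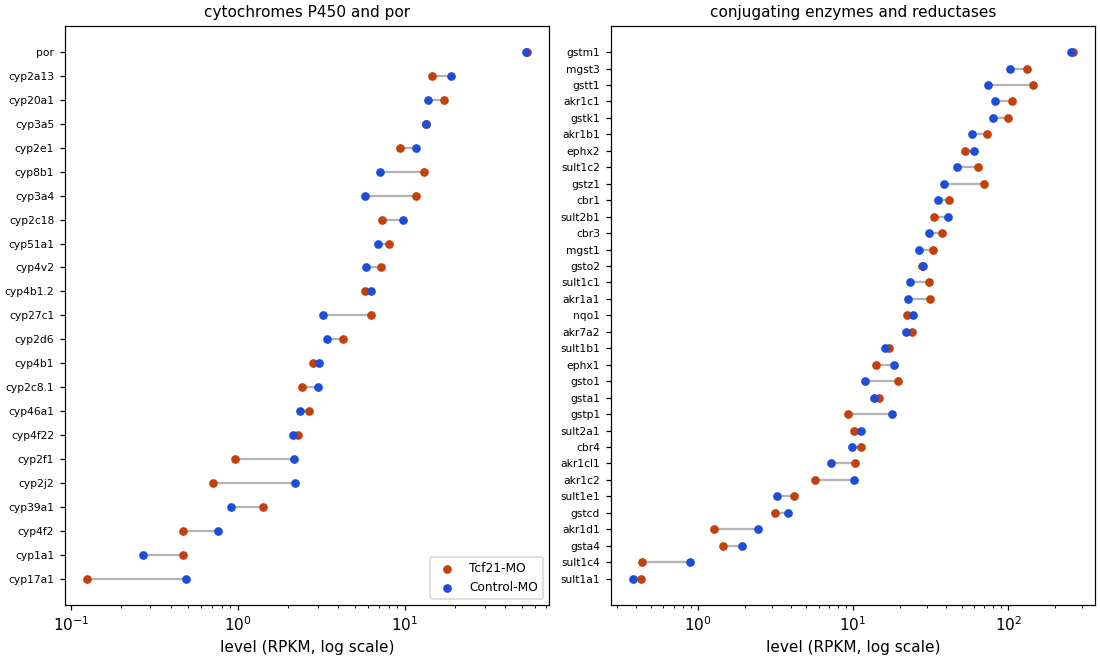
Level in RPKM on a log axis of P450 rows and por (left) and of conjugating enzymes and reductases (right) with at least 20 reads, Tcf21-MO in orange and Control-MO in blue. On the left, por at 54.1 and 53.2 RPKM stands above every P450, and the widest gaps belong to cyp17a1, cyp2j2 and cyp2f1, none above 2.19 RPKM in either library.

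Liver is a main site of many P450s, so liver markers were read beside them. They summed to 319 CPM in the Tcf21-MO and 318 CPM in the Control-MO library. The 2 albumin rows had 1 and 2 reads in the Tcf21-MO library and 0 and 2 in the Control-MO library, and apob had 0 in both. Of 19 liver rows past the floor, 3 were called higher (15.8%, background 2.67%) and 1 lower (5.26%, background 2.40%), so the near-equal sums hide differences in both directions. The higher rows were c3, with 261 reads in the Tcf21-MO library and 44 in the Control-MO library, the S copy of tf (41 and 6) and fgb (149 and 53). The lower row was hpd, with 305 and 671 reads. Of 14 rows for xenobiotic receptors and P450 partners, 0 were 2-fold apart, 3 intervals lay above 1 (21.4%, background 29.8%) and 2 below 1 (14.3%, background 28.4%). The lowest was the fatty acid receptor gene ppara, with 1049 and 1564 reads, 1.46-fold lower, and the highest the cytochrome b5 reductase gene cyb5r3, with 2166 and 1680 reads. The aryl hydrocarbon receptor gene ahr had 297 and 267 reads, a ratio of 1.13 (0.957 to 1.34), and its well-known target cyp1a1 had 24 and 14 reads, a ratio of 1.75 (0.867 to 3.65).

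Sulfotransferases and epoxide hydrolases had 10 rows past the floor, with 0 called. The sult1c4 row, with 12 reads in the Tcf21-MO library and 25 in the Control-MO library, was 2.05-fold lower, but its interval of 0.990 to 4.47 held 1. The sulfotransferase gene sult1c2 led by level, at 64.3 RPKM in the Tcf21-MO and 46.7 RPKM in the Control-MO library, from 1763 and 1303 reads, a ratio of 1.38 (1.28 to 1.48). The related sult1c1 had 719 and 551 reads, a ratio of 1.33 (1.19 to 1.49). The sterol sulfotransferase gene sult2b1 had 1202 and 1508 reads, 1.23-fold lower (1.14 to 1.33). Both epoxide hydrolases were below 1. The soluble enzyme gene ephx2, which opens fatty acid epoxides such as those made by P450 family 2 enzymes, had 1804 and 2079 reads, 1.13-fold lower (1.06 to 1.21). The microsomal enzyme gene ephx1 had 628 and 845 reads, 1.32-fold lower (1.19 to 1.47). The rows sult1c3, sult4a1 and ugt3a2 were under the floor, with 1 and 5, 3 and 14, and 2 and 6 reads.

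Reductases of quinones, aldehydes and ketones, with nqo1 among them, had 6 of 11 intervals above 1 (54.5%, background 29.8%) and 2 below 1 (18.2%, background 28.4%). No row was 2-fold apart, and the median log2 ratio was 0.23. The hydroxysteroid dehydrogenase row akr1c1 had 2383 reads in the Tcf21-MO library and 1881 in the Control-MO library, a ratio of 1.29 (1.21 to 1.37). Aldose reductase (akr1b1) had 2126 and 1713 reads, a ratio of 1.26 (1.19 to 1.35), and the row akr1cl1, akr1c8p in the name table, had 237 and 168 reads, a ratio of 1.44 (1.17 to 1.76). Another pair of aldo-keto reductase rows had intervals below 1. The akr1c2 row had 116 and 211 reads, 1.79-fold lower (1.42 to 2.26), and the steroid reductase gene akr1d1 had 34 and 66 reads, 1.91-fold lower (1.24 to 2.97). The akr1c rows resemble each other, and their separate values are uncertain. The 3 carbonyl reductase rows had ratios from 1.14 to 1.22.

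Of the 6 metallothionein, selenium-named and AIFM rows, 1 was called higher (16.7%, background 2.67%) and 1 lower (16.7%, background 2.40%). The selenium transport protein gene sepp1, selenop1 in the name table, had 15424 reads in the Tcf21-MO library and 8162 in the Control-MO library, a ratio of 1.92 (1.87 to 1.98), just under 2-fold. The S copy of selenbp1, a selenium-binding methanethiol oxidase, had 1104 and 558 reads, 2.02-fold higher (1.82 to 2.23). It too fell under 2-fold with 4 of the 5 other scalings, at a lowest log2 ratio of 0.93. Its L copy had 11 and 9 reads, so 99.0% of selenbp1 RPKM in the Tcf21-MO and 98.4% in the Control-MO library came from S. The metallothionein row mt4 had 861 and 718 reads, a ratio of 1.22 (1.10 to 1.35).

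The AIFM proteins are flavoenzymes related to apoptosis-inducing factor. The aifm3 row had 27 reads in the Tcf21-MO library and 95 in the Control-MO library, 3.45-fold lower (2.23 to 5.51), the lowest ratio among members with at least 50 reads. The aifm2 row, named for a ubiquinone reductase that protects membranes from lipid peroxidation, had 772581 and 751574 reads. It took 4.35% of all reads in the Tcf21-MO and 4.26% in the Control-MO library, and ranked 1 of all transcripts by RPKM in the Tcf21-MO and 2 in the Control-MO library. It made up 84.8% of member reads in the Tcf21-MO and 85.6% in the Control-MO library, so summed reads of the members mainly measure this row. Its ratio of 1.05 (1.04 to 1.05) turned below 1 when erythroid rows or the 50 most abundant transcripts were left out of the scaling. Whether these reads come from the aifm2 gene was not tested. Without it, the members had 138090 reads in the Tcf21-MO and 126286 in the Control-MO library, or 0.777% and 0.716% of all reads.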

How the data were processed

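The authors deposited counts of whole reads per RefSeq transcript for 2 libraries, with a gene symbol and a length in bp (another kind of value), per the file headers. Tools, per the submitters' processing notes, were Bowtie2 2.0.0.6, CASAVA 1.7 and SAMtools 0.1.18.0. The build, the counting rule, the treatment of multi-mapping reads and the use of strand were not given in the sources used here. Thus overlapping, antisense and near-identical genes are uncertain. A further 3 deposited columns (a scaling factor, scaled control reads and fold changes; 1 of them per sample) were not used.

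TMM factors came from edgeR 4.0.16 (R 4.3.3), 0.987 for Tcf21-MO and 1.013 for Control-MO. Ratios used scaled counts, and log2 ratios 0.5 added counts. Clopper-Pearson intervals were conditional on the summed count, computed with Python 3.11.15, NumPy 2.4.6, SciPy 1.17.1 and pandas 2.3.3, and cover counting error only, since PCR reads without molecular identifiers are not independent molecules. No p-value was computed, with 1 library per group. The procedure was tested on simulated Poisson counts, which hold counting error only. That test does not cover variation between hearts or libraries.

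Of the 111 members, 106 matched a name table of assembly version 10.1, used for names only, and 6 had another symbol there. Members and lists were chosen with earlier results of these data known. By rule, the text names cat, cyp3a4, aifm2, members at least 2-fold apart, and for each role the 2 with the highest RPKM and the highest and lowest ratio with at least 50 reads, with their other rows. Other members and listed genes were named after their values were seen. Alternatives used DESeq2 1.42.0 size factors, other scalings, floors, pseudocounts and thresholds.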

Additional observations from a re-analysis of the deposited data

How the results depend on the processing

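No paired analysis was possible because each group was 1 library. The count of members at least 2-fold higher, 3 as reported, was 1 when scaled to the total count, to the total without the 50 most abundant transcripts, without the aifm2 row or without erythroid rows, and 1 without rows named for other roles (txnip, txnl4a, txnl4b, selenbp1, txndc6, txndc9 and gstcd), where cyp3a4 was left. Under the 4 scalings the lost members were cyp3a4 and selenbp1, with log2 ratios from 0.93 to 0.98, and txnip stayed higher. A threshold of 1.5-fold gave 10 higher and 11 lower members, and one of 4-fold gave 0 in each direction. The count of lower members, 7 as reported, stayed between 5 and 10 in the other settings run. The members' median log2 ratio, 0.07 as reported, fell below 0 in 2 settings. It stood at -0.02 with the 50 most abundant transcripts left out of the scaling and at -0.01 with erythroid rows left out. Both settings also moved the median of all transcripts to -0.08. Whether the members' median differs from 0 was not tested. Of 42 named rows, 6 changed sign under at least 1 setting (aifm2, glrx5, gstm1, por, prdx1 and sod1), and 0 of the 10 members 2-fold apart did. The settings without the aifm2 row, without erythroid rows, without rows named for other roles and with name-table symbols were chosen after seeing the data. Leaving out a library was not possible with 1 per group. Depth limits cyp17a1, cyp2j2, cyp2f1, cat and aifm3, with fewer than 100 reads in each library.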

Other observations

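Several selenoproteins stand in the table under older symbols that the member pattern did not take, and they were listed after their values were seen. None of their 7 rows was 2-fold apart, and their median log2 ratio was 0.13. The endoplasmic reticulum protein gene sels (selenos in the name table) had 550 reads in the Tcf21-MO library and 420 in the Control-MO library for its L copy, and 691 and 630 for its S copy. The gene selm (selenom) had 2635 and 3388 reads, 1.26-fold lower, and selt (selenot) had 3903 and 3964. The log2 ratio of 0.94 for sepp1 lay above the range of these 7 rows, which ran from -0.34 to 0.42. The selenoenzyme rows dio3 and dio1, described below, also lay outside that range, at log2 ratios of -1.25 and -1.09. Those of txnrd3 and txnrd2 lay within it, at 0.19 and -0.06. These rows are not a full list of selenoenzymes. Among the glutathione peroxidases, gpx3 (S) and gpx1 lay outside the range, at -1.32 and -0.76. The rows gpx3 (L), gpx4 (L) and gpx4 (S) lay within it, at -0.31, 0.31 and 0.37.

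Of 7 rows for selenocysteine synthesis and for deiodinases, the selenoenzymes that activate or inactivate thyroid hormone, 2 were at least 2-fold lower (28.6%, background 2.40%). Both were deiodinases with few reads, and no other row of the list was called. The 2 were dio3, with 32 reads in the Tcf21-MO library and 78 in the Control-MO library, 2.39-fold lower (1.57 to 3.73), and dio1, with 14 and 31 reads, 2.17-fold lower (1.12 to 4.42). Among the factor genes that build and insert selenocysteine, ratios were 1.25 (1.03 to 1.54) for the elongation factor gene eefsec, 1.19 (0.987 to 1.43) for the synthase gene sepsecs, 1.14 (1.06 to 1.23) for sephs1 and 0.770 (0.545 to 1.08) for the kinase gene pstk. The selenocysteine lyase gene scly had a ratio of 1.13 (0.957 to 1.35).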
